A study of Mus musculus with 6 samples.

Results

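Pxdc1, Phactr1, Cdhr2, Nnt, Gm26965 and Gm47381 are genes of mouse chromosome 13, the chromosome that carries Tfap2a. They differed between Tfap2Δ/NCKO mutant and control embryos in bulk RNA-seq of the midface. For Nnt this held for an entry of the gene table and not for the sum of both its entries. The 6 genes were chosen by name because of that same difference. Their levels, fold changes and calls below therefore describe the choice, and none of them is independent evidence of a difference. The 6 symbols took up 7 of 55401 rows of the gene table, since Nnt has 2 entries. All 7 rows passed the filter on low counts that 19612 rows passed. Cdhr2, Gm26965 and Gm47381, at 0 throughout a genotype, passed it only through the counts of the other genotype. Chromosome 13 held 2490 rows, of which 826 were tested.

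The libraries came from frontonasal and maxillary prominence tissue of E10.5 embryos, 3 mutants and 3 control littermates. The mutants were Tfap2a null/floxed and Tfap2b null/floxed and carried Wnt1:CRE, a transgene in which the Wnt1 promoter drives recombinase in neural crest cells before they migrate. The controls were CRE-negative, and the labels do not say which Tfap2a and Tfap2b alleles they held. Dams were homozygous for the floxed allele of both genes and the CRE-positive sires were heterozygous for both null alleles. Each embryo therefore received a floxed copy of each gene from the dam, and each mutant received both null copies from the sire. All mice were on a mixed background. Every mutant and no control carried the transgene, so its effect and that of TFAP2 loss cannot be told apart. Every mutant also carried the chromosome 13 on which the Tfap2a null allele came, and how many controls carried it is not known, so the part of that chromosome was not tested.

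The TFAP2 proteins are transcription factors of the early embryo that bind GC-rich palindromes, and in the face they act in the surface ectoderm and in the cranial neural crest cells that build its skeleton. Genes that lie on the same chromosome as an engineered allele are inherited with it unless a crossover separates them, so alleles of the strain in which the gene was targeted can travel with it through later crosses. Inbred strains differ in coding sequence and in expression, and Nnt is a textbook case: C57BL/6J mice carry a deletion of several of its exons.

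Library totals ran from 68119668 to 77555252 in mutants and from 72512509 to 75228775 in controls, so 3 counts, the limit used for a gene at 0, came to 0.0384 to 0.0444 CPM (counts scaled to library size) and cover counting error only. Tfap2a itself read 31.5, 28.6 and 28.6 CPM in mutants 1 to 3, against 30.5, 33.1 and 35.1 CPM in controls 1 to 3, and these ranges overlapped (log2 fold change, mutant over control, -0.15, adjusted p = 0.684, edgeR). Tfap2b had 84.2, 75.7 and 77.7 CPM in mutants, against 90.1, 88.7 and 97.3 CPM in controls (log2 fold change -0.22, adjusted p = 0.260, edgeR). The deposited values sum all exons and all cells of the tissue, including epithelium that does not express the transgene, and therefore do not check the deletion. In such bulk tissue fewer cells of a type and less RNA per cell cannot be told apart. Y-linked genes were expressed in all 3 mutants and in control 2 but not in controls 1 and 3 (summed 156, 148 and 153 CPM in mutants, against 0.0798, 147.9 and 0.0266 CPM in controls). In the Y-expressing libraries alone, which leave 1 control, every one of the 7 rows kept its direction and none was called. With a Y-linked covariate the calls of Cdhr2, Gm26965 and Nnt were lost and those of Pxdc1, Phactr1 and Gm47381 were not.

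Calls required an adjusted p under 0.05 in edgeR and a level over 25% higher in either genotype. Of the 7 rows 6 were called, against 0.326% of all tested rows, a count that the choice of these genes fixes. By direction, 4 called rows were lower in mutants (Pxdc1, Phactr1, Cdhr2 and Gm47381), against 0.219% of all tested rows, and 2 were higher (Gm26965 and an Nnt entry), against 0.107%. In none of the 7 rows did the mutant and control libraries overlap, against 13.4% of all tested rows with no overlap.

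Pxdc1 encodes a protein with a PX domain, a fold that in other proteins binds phosphoinositides of membranes. The gene (ENSMUSG00000021411.16) lies on the minus strand at chr13:34627834-34653486 (GRCm38), with its start at -6.085 Mb from that of Tfap2a. It had 3.62, 4.01 and 3.85 CPM in mutants 1 to 3, against 8.02, 8.47 and 7.94 CPM in controls 1 to 3. The mutant libraries lay close together and all of them were below every control. The means were 3.83 ± 0.199 CPM in mutants and 8.14 ± 0.285 CPM in controls (SD, n = 3 each), a log2 fold change of -1.09 (SE 0.10). An antisense gene, Gm15908, shares 306 exon bases with Pxdc1 and was at 0 in all 6 libraries. Its log2 fold change ran from -1.16 to -1.05 over 15 alternative settings, with -1.16 in the Y-expressing libraries alone.

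Phactr1 encodes a regulator that binds actin monomers and protein phosphatase 1. It is the nearest of the 6 genes to Tfap2a, with its start 1.94 Mb beyond that of Tfap2a (ENSMUSG00000054728.17, chr13:42680623-43138526, plus strand). Its level was 9.88, 11.2 and 12.8 CPM in mutants, against 21.4, 23.5 and 24.9 CPM in controls. The means were 11.3 ± 1.44 CPM in mutants and 23.3 ± 1.73 CPM in controls (SD, n = 3 each), a log2 fold change of -1.05 (SE 0.10). Mutant 3, the highest mutant, was still well below control 1, the lowest control. In the Y-expressing libraries alone the log2 fold change was -1.08. Leaving out mutant 2 ended the call with a log2 fold change of -1.04, while leaving out any of the other 5 libraries kept it.

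Cdhr2 encodes a protocadherin that, with Cdhr5, links the tips of neighbouring microvilli in the brush border of gut and kidney. The gene (ENSMUSG00000034918.8) lies on the plus strand at chr13:54701461-54736662, its start 13.96 Mb from that of Tfap2a. No count was recorded in any mutant, against 27, 21 and 17 counts in controls 1 to 3. In CPM the controls had 0.361, 0.289 and 0.225, a mean of 0.292 ± 0.0679 (SD, n = 3). Set against a limit of 3 counts per library, Cdhr2 was at least 6.95-fold lower in mutants. The call was lost on leaving out any 1 of the 6 libraries, with the mutants at 0 throughout.

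RefSeq promoters (GRCm38.p6, 250 bases before to 50 bases after a start site) were listed for 3 of the 6 genes, with 1 for Pxdc1, 3 for Phactr1 and 1 for Cdhr2, while Nnt, Gm26965 and Gm47381 had no entry. They are shown for these genes because all of them were lower in mutants and because TFAP2 proteins are known to bind GCCNNNGGC. This motif, and the same motif with 1 more N between GCC and GGC (the longer form), read alike on both strands and were searched as separate patterns that may overlap. Capitals mark the outer bases of a match.
Pxdc1, minus strand, chr13:34652632-34652931: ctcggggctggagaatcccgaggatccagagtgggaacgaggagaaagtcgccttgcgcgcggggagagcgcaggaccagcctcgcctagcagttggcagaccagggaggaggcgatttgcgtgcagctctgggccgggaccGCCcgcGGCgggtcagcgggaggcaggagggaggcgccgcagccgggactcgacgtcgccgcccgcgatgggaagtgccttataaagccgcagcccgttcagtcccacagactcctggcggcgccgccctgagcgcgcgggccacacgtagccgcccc
Phactr1, plus strand, chr13:43122589-43122888: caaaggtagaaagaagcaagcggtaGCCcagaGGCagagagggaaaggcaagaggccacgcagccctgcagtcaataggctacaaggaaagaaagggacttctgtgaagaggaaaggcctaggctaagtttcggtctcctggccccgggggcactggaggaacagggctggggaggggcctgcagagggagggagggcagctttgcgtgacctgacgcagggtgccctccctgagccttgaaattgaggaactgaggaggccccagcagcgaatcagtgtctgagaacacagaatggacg
Cdhr2, plus strand, chr13:54701213-54701512: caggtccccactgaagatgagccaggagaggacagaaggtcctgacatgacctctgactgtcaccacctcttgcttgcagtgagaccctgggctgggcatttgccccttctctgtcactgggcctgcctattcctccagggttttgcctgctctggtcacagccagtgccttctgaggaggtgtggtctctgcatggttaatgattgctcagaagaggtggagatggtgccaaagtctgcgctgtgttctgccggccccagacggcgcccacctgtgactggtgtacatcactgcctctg
The Pxdc1 promoter, at 71.3% GC, holds GCCNNNGGC with its first base 108 bases before the RefSeq start site. That start lies inside the Pxdc1 span given above and is not the start from which the distance to Tfap2a was taken. The Phactr1 promoter shown belongs to a start inside the gene and holds the longer form from 225 bases before that start. The other Phactr1 promoters and that of Cdhr2 hold neither. Across 32851 promoters of this length, GCCNNNGGC was found in 16.6%, the longer form in 14.8% and at least 1 of them in 27.0%. A match describes the letters of the window and is no evidence of binding.

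**Figure D1:**
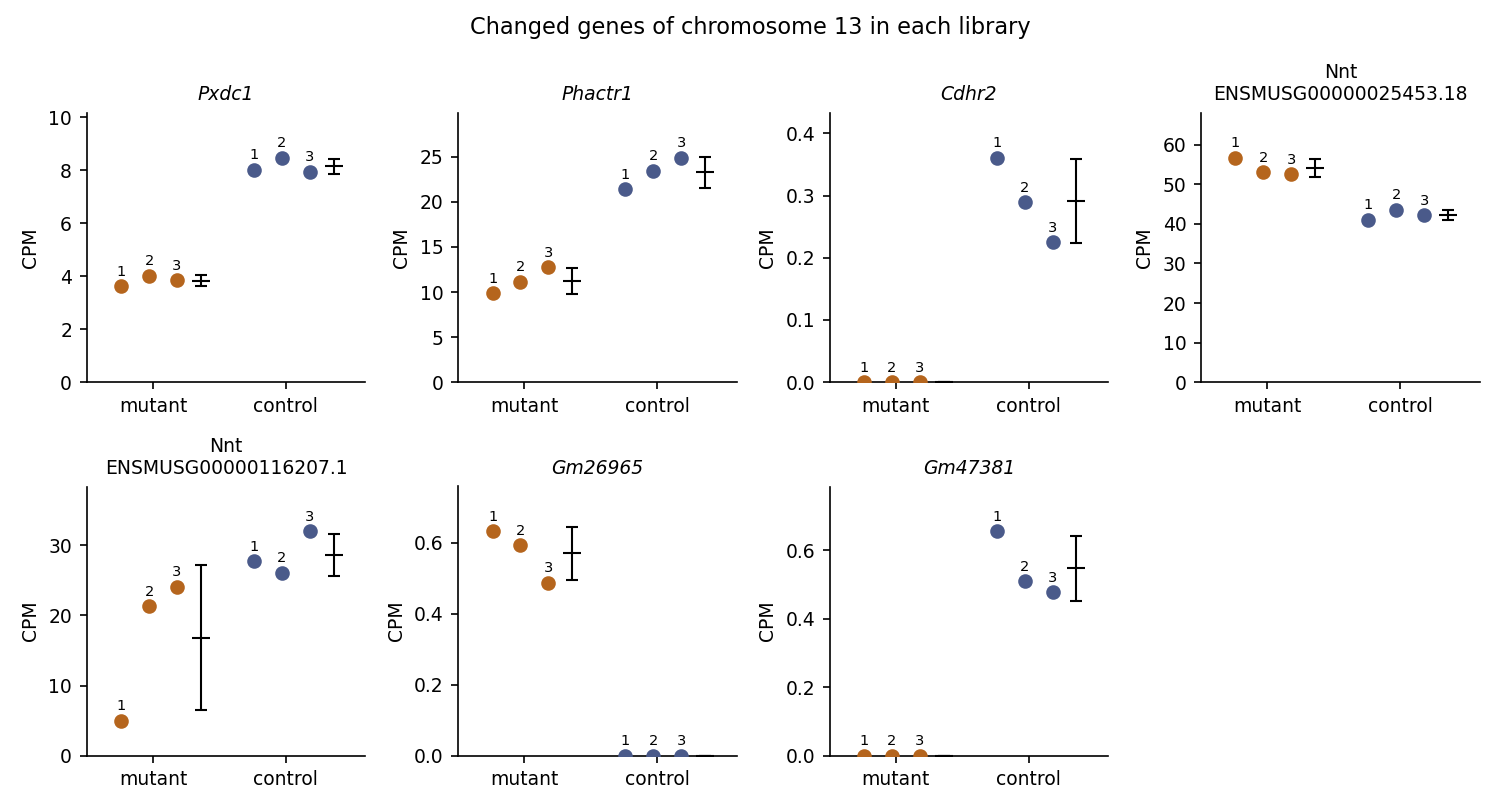
Expression of the 6 genes in each library, in CPM on a linear axis from 0; orange points are mutants and blue points controls, numbers are replicate numbers, and bars give the mean and SD of 3 libraries. Mutants and controls do not overlap in any panel, Cdhr2 and Gm47381 are at 0 in every mutant, and Gm26965 is at 0 in every control.

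Gm47381 is annotated as a long intergenic non-coding RNA of unknown function (ENSMUSG00000114688.1, chr13:91259376-91274954, plus strand, its start 50.5 Mb from that of Tfap2a). It had 0 counts in each mutant, against 49, 37 and 36 counts in controls 1 to 3. The controls had 0.655, 0.509 and 0.476 CPM, a mean of 0.547 ± 0.0949 (SD, n = 3), and with the limit of 3 counts per library the mutants were at least 13.03-fold lower. The pseudogene Gm4130 lies within its span on the opposite strand without sharing an exon base. Gm4130 itself had 1.19, 1.32 and 1.32 CPM in mutants, against 1.496, 1.39 and 1.44 CPM in controls, and was not called. The Gm47381 call was lost when control 1 or control 3 was left out, with the mutants at 0 throughout.

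Gm26965 had the reverse pattern. It is annotated as protein coding (ENSMUSG00000097565.1, chr13:67491152-67526151, minus strand, its start 26.8 Mb from that of Tfap2a) and sits in a cluster of zinc finger genes. It had 44, 40 and 38 counts in mutants 1 to 3, against 0 counts in each control. The mutants had 0.632, 0.592 and 0.486 CPM, a mean of 0.570 ± 0.0751 (SD, n = 3), which was at least 14.1-fold higher than in controls at the limit of 3 counts per library. Leaving out mutant 2 or mutant 3 ended this call.

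All 1520 exon bases of Gm26965 are shared, on the same strand, with the neighbouring zinc finger genes Zfp58 (1222 bases) and Zfp87 (298 bases). The split of reads among the 3 genes is thus an estimate made by the quantification, and the Gm26965 value is uncertain. Zfp58 read 601, 589 and 901 counts in mutants, against 677, 686 and 757 in controls. Zfp87 read 1316, 1221 and 1587 counts in mutants, against 1418, 1436 and 1426 in controls. Both of these genes overlapped between genotypes, and Gm26965 was a small share of the reads at this locus in every mutant. Summed over the 3 genes, the locus had 28.1, 27.4 and 32.3 CPM in mutants, against 28.0, 29.2 and 28.9 CPM in controls (log2 fold change 0.03, SE 0.07). The 44, 40 and 38 counts of Gm26965 are few beside sums of 1961, 1850 and 2526 counts in mutants and 2095, 2122 and 2183 counts in controls. The sum, added after the values were seen, was therefore unable to show a change of this size and says nothing of whether Gm26965 differed.

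Nnt encodes nicotinamide nucleotide transhydrogenase, an enzyme of the inner mitochondrial membrane that uses the proton gradient to make NADPH. It was the farthest of the 6 genes from Tfap2a, near the end of the chromosome (chr13:119335448-119408997, minus strand, its start 78.7 Mb from that of Tfap2a). The called entry (ENSMUSG00000025453.18, 7037 exon bases) had 56.7, 53.1 and 52.5 CPM in mutants, against 41.0, 43.6 and 42.1 CPM in controls. Its means were 54.1 ± 2.27 CPM in mutants and 42.2 ± 1.27 CPM in controls (SD, n = 3 each), a log2 fold change of 0.36 (SE 0.05). The 3 mutants were all above the 3 controls, but the call was lost on leaving out any 1 library, at log2 fold changes of 0.32 to 0.38.

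The other Nnt entry (ENSMUSG00000116207.1, chr13:119335528-119408952) has 3339 exon bases, and all of them are also exon bases of the called entry. The split of reads between both entries is thus an estimate made by the quantification, and the value of each is uncertain. The other entry went the other way, with 4.995, 21.3 and 24.1 CPM in mutants, against 27.7, 26.1 and 32.0 CPM in controls. Mutant 1 stood far below the rest, and the means were 16.8 ± 10.3 CPM in mutants and 28.6 ± 3.05 CPM in controls (SD, n = 3 each; log2 fold change -0.77, SE 0.61, not called). Summing both entries, again after the values were seen, gave 61.7, 74.4 and 76.6 CPM in mutants, against 68.7, 69.6 and 74.1 CPM in controls, with a log2 fold change of 0.0015 (SE 0.08). For the locus as a whole the genotypes overlapped. The lower value of the uncalled entry leaned on mutant 1, without which its log2 fold change was -0.33.

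**Figure D2:**
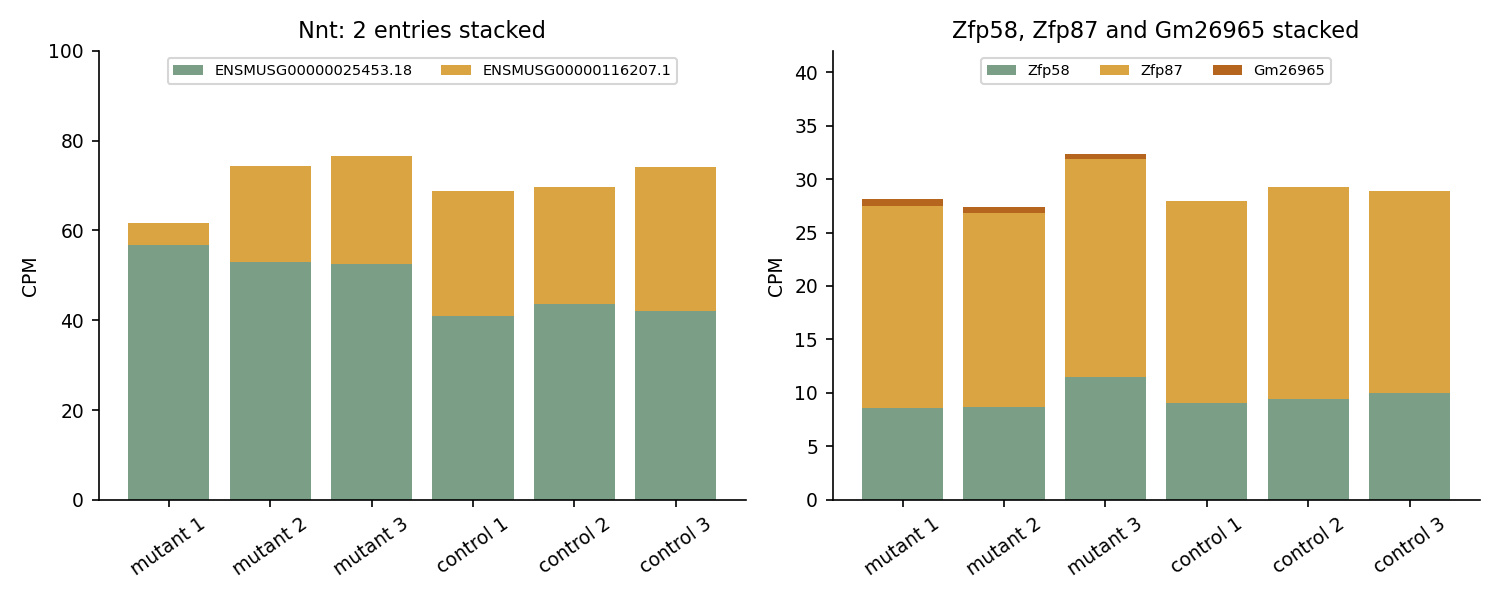
CPM of entries that share exon bases, stacked for each library from 0, mutants to the left of controls. Left, the called (green) and other (yellow) Nnt entry; the totals run from 61.7 to 76.6 CPM in mutants and from 68.7 to 74.1 CPM in controls. Right, Zfp58, Zfp87 and Gm26965 (orange, visible in mutants only); the totals run from 27.4 to 32.3 CPM in mutants and from 28.0 to 29.2 CPM in controls.

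Per kilobase of exon, the order of the mean levels in mutants was the called Nnt entry (7.69 CPM per kb), the other Nnt entry (5.04), Pxdc1 (1.31), Phactr1 (1.17) and Gm26965 (0.375), with Gm47381 and Cdhr2 at 0. In controls the other Nnt entry came first (8.57 CPM per kb), then the called Nnt entry (6.002), Pxdc1 (2.79) and Phactr1 (2.42). Gm47381 (0.576) and Cdhr2 (0.0706) followed, with Gm26965 at 0. The order of the Nnt entries and the level of Gm26965 rest on the estimated split of reads over shared exons and are uncertain. The mutant mean of the other Nnt entry also leaned on mutant 1.

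Along the chromosome the called rows fell in 7 of 12 windows. Counted in windows of 10 Mb from the Tfap2a start, the window before it held 1 called gene, the window after it held 2, and the windows from 10 to 20, 20 to 30, 30 to 40, 50 to 60 and 70 to 80 Mb held 1 each. Rows with no overlap between genotypes made up 1.72% to 19.05% of the tested rows of a window, against 13.4% of all tested rows. On chromosome 13 as a whole the share was 12.2%. The highest share was in the 10 Mb before Tfap2a, a window of 63 tested rows that holds Pxdc1. In the 10 Mb after Tfap2a it was 14.9%. Windows held 26 to 107 tested rows.

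**Figure D3:**
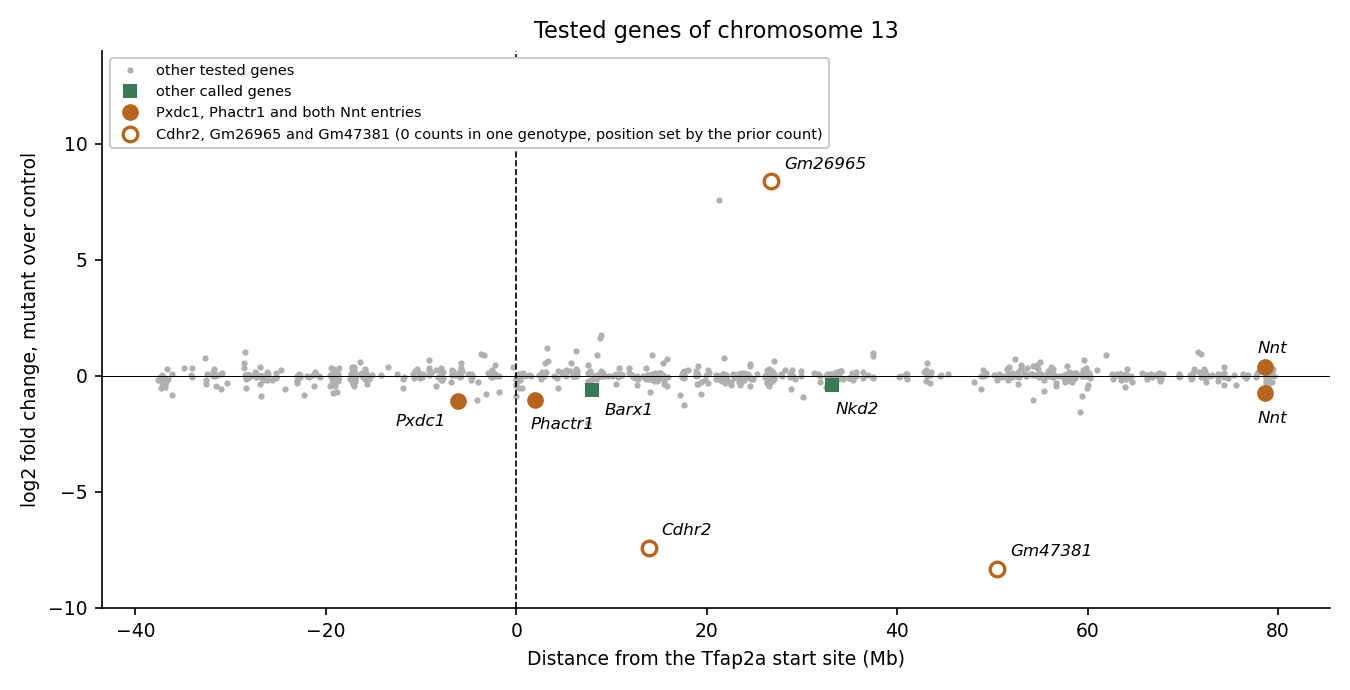
Log2 fold change (mutant over control) of the 826 tested rows of chromosome 13 against distance from the Tfap2a start site in Mb. Orange marks the 6 genes (open where all libraries of a genotype are at 0, so that the height depends on the prior count), green squares the other called genes, Barx1 and Nkd2, and grey the remaining rows; called genes lie from -6.085 to 78.7 Mb.

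Of the 8 called rows of chromosome 13, 2 belonged to genes outside the chosen set. Barx1, a homeobox gene of facial mesenchyme, lies 7.92 Mb beyond Tfap2a and had 21.1, 24.3 and 19.5 CPM in mutants, against 30.6, 35.3 and 32.4 CPM in controls (log2 fold change -0.60, adjusted p = 0.0449, edgeR). Nkd2, an antagonist of Wnt signalling, lies 33.1 Mb beyond Tfap2a and had 23.5, 25.2 and 24.1 CPM in mutants, against 33.5, 32.3 and 30.5 CPM in controls (log2 fold change -0.40, adjusted p = 0.0470, edgeR). Both genes lost the call with a Y-linked covariate and when any 1 library was left out, with log2 fold changes of -0.69 to -0.53 for Barx1 and -0.45 to -0.38 for Nkd2.

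Several rows of chromosome 13 sat near the limit of a call. Just inside it were Nnt at an adjusted p of 0.0422, Cdhr2 and Barx1, both at 0.0449, and Nkd2 at 0.0470, and the next rows outside it on chromosome 13 were Selenok-ps8 and Net1, both at 0.0663 (edgeR). Selenok-ps8, a processed copy of a selenoprotein gene, had 16, 15 and 40 counts in mutants, against 0 in every control, much like Gm26965. Net1, an exchange factor for RhoA, had 127, 121 and 127 CPM in mutants, against 153, 152 and 147 CPM in controls.

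Chromosome 13 had the highest share of called rows of the 20 chromosomes compared, at 0.969% of its tested rows, against 0 to 0.594% on the other 19, whose median was 0.218%. The chosen genes make up 6 of its 8 calls, so this share is not independent of the choice. The order depended on the method: with DESeq2, 17 rows of chromosome 13 were called (2.06%), the second highest share. The others had 0.683% to 2.44%, and 1.44% of all tested rows were called. Only 11 of these 17 calls lay outside the chosen set, so the DESeq2 share is not independent of the choice either. Without the chosen rows, 2 of 819 tested rows of chromosome 13 were called by edgeR and 11 of 819 by DESeq2. By the share of rows whose genotypes did not overlap, chromosome 13 ranked 17th, at 12.2%, against 10.8% to 15.8% on the others. Without the 7 rows its share was 11.5%.

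Genes at 0 in every library of a genotype and at 10 or more counts in each library of the other, a definition set after the values were seen, numbered 6 in the whole table, and 4 of them were on chromosome 13. These were Cdhr2 and Gm47381, at 0 in mutants, and Gm26965 and Selenok-ps8, at 0 in controls. The others were Car6 on chromosome 4, with 0 counts in each mutant, against 11, 10 and 14 in controls, and Myh11 on chromosome 16, with 26, 16 and 17 counts in mutants, against 0 in each control. The count moves with the definition: at 5 or more counts, 4 of 30 such genes were on chromosome 13, and at 20 or more both of the 2 genes left, Gm26965 and Gm47381, were. Since Cdhr2, Gm26965 and Gm47381 were chosen for this very difference, these counts are no evidence about the chromosome, and without them 1 of the 3 genes at 10 or more counts, Selenok-ps8, was on chromosome 13. Car6 and Myh11 were named for their values.

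**Figure D4:**
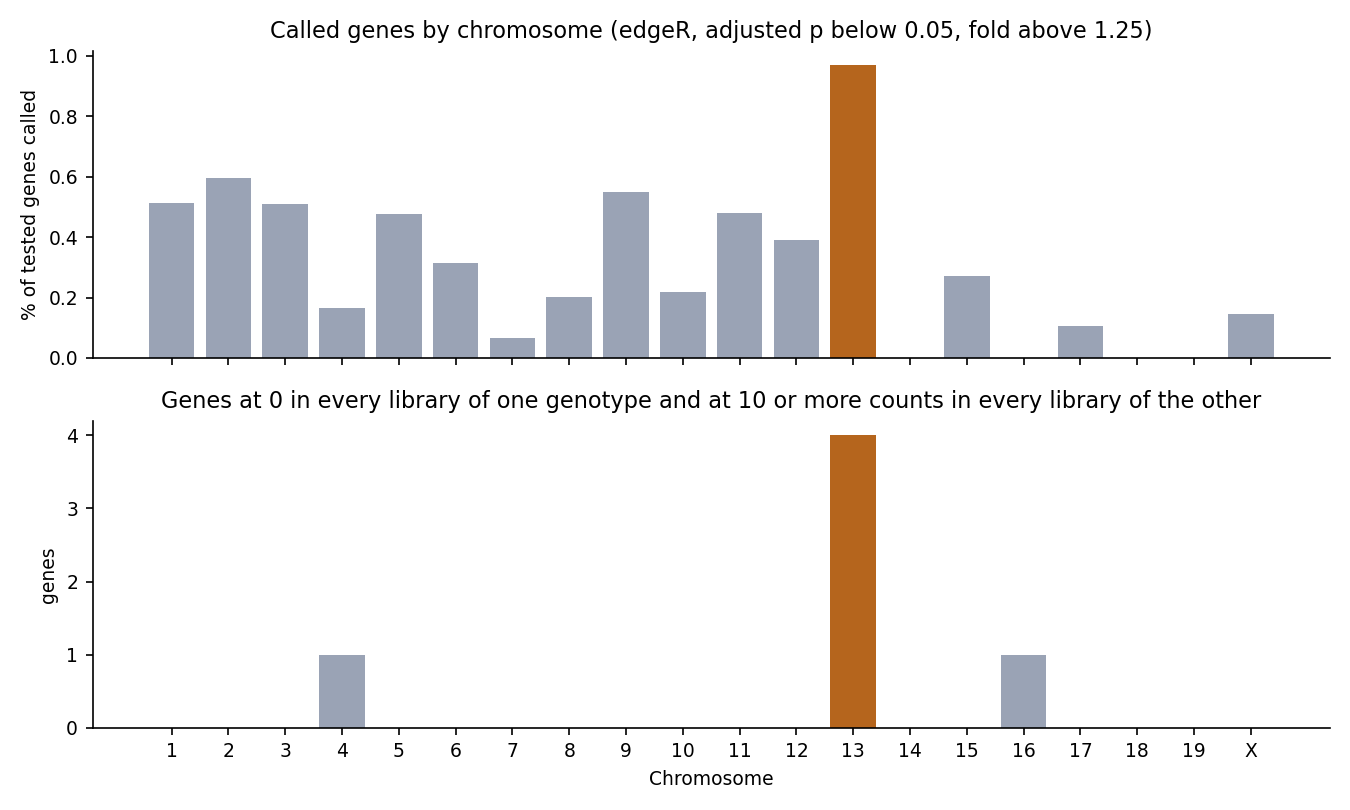
Top, percentage of tested rows called in each chromosome (edgeR); bottom, number of genes at 0 in every library of a genotype and at 10 or more counts in every library of the other. Chromosome 13, in orange, reads 0.969% and 4 genes, and only 2 of its 8 called rows lie outside the chosen set. Chromosomes 4 and 16 have 1 gene each at the bottom, and 4 chromosomes have no called gene.

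The genes next to the 6 were then read as neighbours that the choice did not use. The 3 nearest tested genes on each side gave 36 neighbours, of which 0 were called by edgeR or by DESeq2 and 1 had an unadjusted p under 0.05 in edgeR. Their log2 fold changes had a median of 0.01, against 0.0008 over all tested rows, and ran from -0.72 to 0.34, with 17 below and 19 above 0. In 5 of the 36 the genotypes did not overlap, a share close to the 13.4% of all tested rows. The neighbour at -0.72 was Sncb, which encodes beta-synuclein and starts 65.1 kb from Cdhr2, with 0.718, 1.30 and 1.08 CPM in mutants, against 1.34, 1.87 and 1.89 CPM in controls (adjusted p = 0.454, edgeR). Sncb was picked out for its value.

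The nearest neighbours of Phactr1 were Edn1, the ligand that patterns the lower jaw, and Tbc1d7. Edn1 averaged 1.03 ± 0.219 CPM in mutants and 1.04 ± 0.103 CPM in controls (SD, n = 3 each) and starts 379 kb away. Tbc1d7 averaged 20.7 ± 0.798 CPM in mutants and 20.2 ± 1.44 CPM in controls. Around Cdhr2, Rnf44 had a log2 fold change of -0.13 and Gprin1 one of -0.0002, and beside Pxdc1 the genes Gm6129 and Gm36839 had 0.02 and 0.21. The nearest gene before Gm47381, Atg10, a gene of autophagy, had a log2 fold change of 0.04. None of these neighbours was called.

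Nnt is flanked by Fgf10, a growth factor gene of the mesenchyme, and by Paip1. Fgf10 had 12.6, 11.4 and 11.2 CPM in mutants, against 10.02, 10.52 and 10.81 CPM in controls, with no overlap but without a call (log2 fold change 0.17, adjusted p = 0.740, edgeR). Paip1, which starts 19.6 kb from Nnt, had a log2 fold change of -0.01. A further neighbour, 4833420G17Rik, was picked for its values. It had 40.7, 60.4 and 60.4 CPM in mutants, against 62.9, 63.9 and 61.9 CPM in controls (adjusted p = 0.844, edgeR). Mutant 1 was the lowest library here, as it was for the uncalled Nnt entry.

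**Figure D5:**
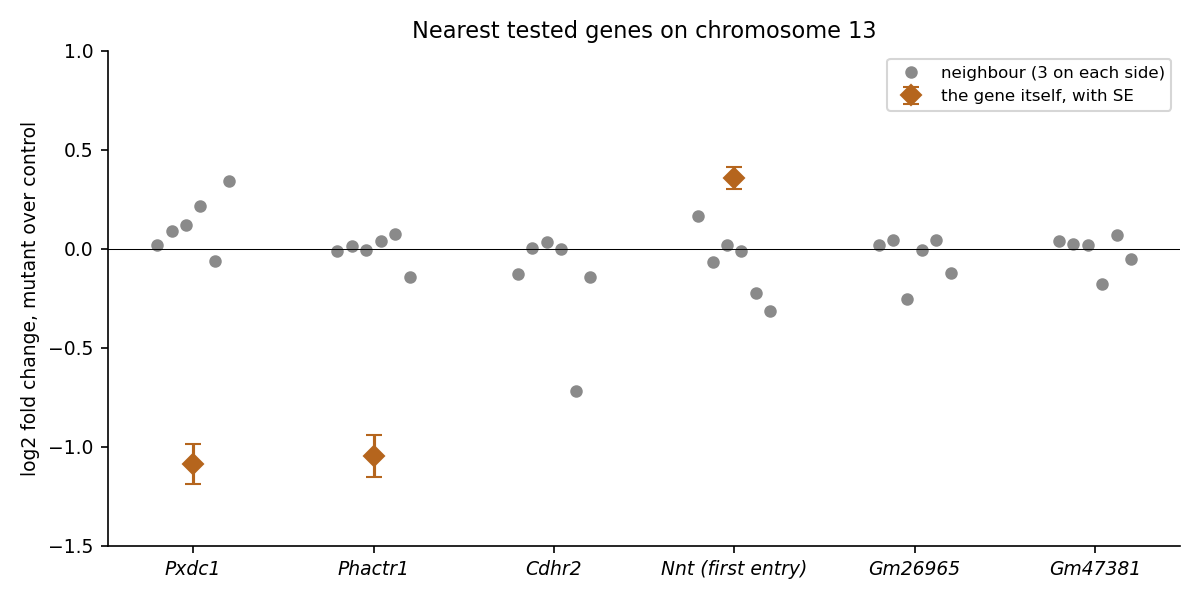
Log2 fold change (mutant over control) of the 3 nearest tested genes on each side of the 6 genes (grey) and, where no genotype is at 0, of the gene itself with its SE (orange diamond). Neighbours run from -0.72 to 0.34 and none was called, while Pxdc1 and Phactr1 lie at -1.09 and -1.05; Cdhr2, Gm26965 and Gm47381 have no diamond because their fold changes are bounds.

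Within 1 Mb of the Tfap2a start 15 other genes were tested. None was called by edgeR or DESeq2 and none had an unadjusted p under 0.05 in edgeR, with a median log2 fold change of -0.02. The range went from -0.87 for Gm9979, which had 17, 6 and 9 counts in mutants against 22, 18 and 21 counts in controls, to 0.36 for Ofcc1, with 12, 0 and 12 counts in mutants against 12, 7 and 0 counts in controls. Genes at higher levels differed little: Elovl2, an elongase of long fatty acids, averaged 50.6 ± 0.430 CPM in mutants and 49.2 ± 1.74 CPM in controls (SD, n = 3 each). Nedd9, a scaffold protein of focal adhesions, averaged 38.8 ± 2.37 CPM in mutants and 35.8 ± 5.33 CPM in controls. Phactr1, at 1.94 Mb from Tfap2a, thus lies beyond a stretch in which no tested gene was called.

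Genes that work with the encoded proteins were read from lists, which were chosen with earlier results of these data known. For Nnt, all 16 listed enzymes of mitochondrial NADPH and redox balance were tested and 0 were called by edgeR or DESeq2 (2 at an unadjusted p under 0.05, edgeR). Their median log2 fold change was 0.05, in a range of -0.09 to 0.62. Idh2, a mitochondrial source of NADPH and the highest of the list, had 262.7, 286.1 and 261.7 CPM in mutants, against 258.0, 286.6 and 270.5 CPM in controls.

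For Phactr1, 20 of 24 listed genes of the Phactr family, of protein phosphatase 1 and of the actin-regulated MRTF-SRF pathway were in the table and tested. None was called by edgeR (3 at an unadjusted p under 0.05) and 2 were called by DESeq2. The median log2 fold change was 0.02, from -0.53 for Phactr3 to 1.31 for Acta2, which are named as the ends of that range and were not called by edgeR. Actb, cytoplasmic actin and the highest of the list, averaged 2122 ± 131 CPM in mutants and 2150 ± 106 CPM in controls (SD, n = 3 each).

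For Cdhr2, 11 of 12 listed genes of microvillar adhesion and the brush border were tested, with a median log2 fold change of -0.29 and 7 of 11 below 0. Over all tested rows the median was 0.0008 and 0.326% were called. Several of the listed genes had at most 39 counts in any library, so their fold changes, and the median with them, are uncertain. The only call was Eps8, an actin-capping and bundling protein of microvilli and other protrusions, which fell to 6.04, 6.60 and 7.09 CPM in mutants, against 12.3, 11.3 and 11.5 CPM in controls (log2 fold change -0.83, adjusted p = 0.0109, edgeR). The Eps8 call was lost with a Y-linked covariate and without control 1, control 3 or mutant 2, at log2 fold changes of -0.88 to -0.77 over all omissions. Cdhr5, named as the partner of Cdhr2, averaged 0.150 CPM in mutants and 0.0618 CPM in controls and was not called. It had 10, 12 and 10 counts in mutants, against 0, 0 and 14 counts in controls. Ezr, the membrane-actin linker ezrin and the highest of the list, had 96.8, 99.8 and 94.2 CPM in mutants, against 86.3, 84.2 and 86.0 CPM in controls, with no overlap but no call (adjusted p = 0.196, edgeR).

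A list of genes with known loss or low-expression alleles in inbred strains held 15 genes, of which 11 were tested and 3 were at 0 in every library. The list was chosen with earlier results of these data known, so its calls are not independent evidence. Of the 11 tested genes 2 were called, against 0.326% of all tested rows. Besides the called Nnt entry, which is itself 1 of the chosen genes, the list had 1 call. Gabra2, a subunit of the GABA-A receptor whose expression is reduced in C57BL/6J by an intronic deletion, was at 1.88, 2.28 and 1.89 CPM in mutants, against 0.842, 0.633 and 0.715 CPM in controls (log2 fold change 1.46, adjusted p = 0.0213, edgeR). Gabra2 lies on chromosome 5. All of its mutant values were above all control values, but its call was lost with a Y-linked covariate and on leaving out any library except control 1. The median of the list, the called Nnt entry included, was 0.29, against 0.0008 over all tested rows. That median is the value of a gene with only 11 to 31 counts per library. Cyfip2, the highest gene of the list, overlapped between genotypes (log2 fold change -0.09). Strain of origin of the alleles was not tested here.

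Marker genes of the cell types in the tissue moved beside these differences, and their part in them was not tested. Summed over 9 facial mesenchyme markers the level was 796 to 838 CPM in mutants, against 1015 to 1044 CPM in controls; all 9 were lower in value and 1, Alx4, was called (log2 fold change -0.67, adjusted p = 0.00517, edgeR). Over 10 macrophage markers the sum was 52.6 to 77.0 CPM in mutants, against 31.1 to 42.3 CPM in controls, with all 10 higher in value and C1qb called (log2 fold change 1.02, adjusted p = 0.0423, edgeR), a call lost with a Y-linked covariate and on leaving out any library except control 2. Surface epithelium had 345 to 415 CPM over 10 markers in mutants, against 327 to 346 CPM in controls (7 higher in value, 3 lower). Endothelium had 298 to 310 CPM over 8 markers in mutants, against 271 to 277 CPM in controls, with all 8 higher in value. Neurons had 379 to 515 CPM over 10 markers in mutants, against 454 to 626 CPM in controls (9 lower in value, 1 higher). Erythroid markers, 10 in number, had 2574 to 3783 CPM in mutants, against 2111 to 4762 CPM in controls (7 lower in value, 3 higher). No gene of these types was called, against 0.326% of all tested rows.

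The genes whose pattern over the 6 libraries was most like that of each gene lay mostly on other chromosomes. Only 4.21% of all tested rows were on chromosome 13, so most genes of any kind lie elsewhere. By Pearson's r of log2 CPM, Cdhr2 was most like Gm47381 (r = 0.9988), and Gm47381 was most like A930005H10Rik on chromosome 3 (r = 0.9990), then like Cdhr2. Pxdc1 was most like Itpr3 on chromosome 17 (r = 0.9969), Phactr1 like Dusp7 on chromosome 9 (r = 0.9955) and Gm26965 like Irak3 on chromosome 10 (r = 0.9957). The called Nnt entry was most like Mecom on chromosome 3 (r = 0.9988). For these genes the 6 points fall into 2 genotypes, and r mainly carries that split, the same difference by which the genes were chosen. The other Nnt entry, which follows the low value of mutant 1 instead, was most like Gm17108, also on chromosome 13 (r = 0.9970).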

How the data were processed

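The authors mapped 150-base single-end reads of stranded mRNA libraries to mm10 with STAR, quantified an annotation with StringTie and made gene values with prepDE. The deposited values used here are estimated counts, which prepDE derives from transcript coverage and rounds to whole numbers. Versions of these tools, the annotation's release and prepDE's assumed read length were not given in the sources used here, and the listed StringTie settings hold no strand option. The authors' DESeq2 columns (fold changes, standard errors, p-values) and their kallisto and sleuth table, which holds comparisons only, were not used.

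Genotypes were compared in R 4.3.3 with edgeR 4.0.16: filterByExpr, TMM, the robust quasi-likelihood F test on all 6 libraries without covariate, and Benjamini-Hochberg adjustment over 19612 tested rows of 55401. Calls needed an adjusted p under 0.05 and a level over 25% higher in either genotype, limits taken from the study's first route. The study also asked for a q-value limit in its second route, which was not applied here. The SE is the absolute log2 fold change divided by the square root of F. CPM use TMM-scaled totals, which ran from 68119668 to 77555252 counts before scaling, and counts are not independent molecules. Scripts were tested on simulated data. The replicates were littermate embryos as far as the methods say, and no pair of libraries agreed within sampling noise (chi-square per gene 17.6 to 36.3 in 15 pairs). The count 3 was rarer than 2 and 4 in every library, so tests were repeated on counts divided by 2. Other alternatives were RLE scaling, DESeq2 1.42.0, filters, a replicate block, a Y-linked covariate, and leaving out libraries. Positions and overlaps come from GENCODE M21, which matched 55141 rows by ID.

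Groups and replicate numbers came from the sample titles. The genes and lists were chosen with earlier results of these data known. Besides the 6 genes, the text names Tfap2a, Tfap2b, other called genes of chromosome 13, the next 2 outside the limit, nearest neighbours, tested genes within 1 Mb of Tfap2a, called or highest genes of each list, Gabra2, and the genes most like each by correlation. Sncb, 4833420G17Rik, Phactr3, Acta2, Car6 and Myh11 were named outside this rule for their values, and Cdhr5 for its role.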

Additional observations from a re-analysis of the deposited data

How the results depend on the processing

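The direction of each of the 7 rows held under every alternative that could be fitted, but calls were less stable than values. Nnt as a gene has no single direction, since its entries went opposite ways. Of 15 alternatives Pxdc1 stayed called in 14 and Phactr1 in 13, while the called Nnt entry stayed called in 5; Gm47381 stayed called in 11 of 14, Gm26965 in 10 of 14 and Cdhr2 in 3 of 13. With both entries summed Nnt was not called (log2 fold change 0.0015). If the deposited counts are 2 per read, the bounds fall to 3.48-fold for Cdhr2, 6.52-fold for Gm47381 and 7.06-fold for Gm26965.

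Of the 7 rows 6 were called, against 3 at a mean CPM of at least 1, 3 with a Y-linked covariate, 0 in the Y-expressing libraries alone, which leave 1 control, and 2 to 4 with a library left out. On chromosome 13, 8 rows were called, against 17 with DESeq2, 5 at a mean CPM of at least 1, 4 without robust estimation, 4 with the covariate, 0 in the Y-expressing libraries and 2 to 5 with a library left out. Over all genes the count was 64, against 282 with DESeq2, 36 with the covariate, 33 in the Y-expressing libraries and 23 to 63 with a library left out. Among list genes it was 5, against 15 with DESeq2, 3 without robust estimation, 1 with the covariate, 0 in the Y-expressing libraries and 1 to 9 with a library left out. No neighbour was called under any of these. The causes were not tested.

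With the replicate number as a block, 119 genes were called in all, 10 on chromosome 13, 9 among list genes and 5 of the 7 rows. Cdhr2 lost its call. Deviations of libraries with the same number correlated at 0.0319, 0.109 and 0.131, and every library correlated best with its own number. The columns of the deposited values are lettered so that control and mutant of the same number follow each other. Nothing in the labels ties the numbers to a litter, so whether they pair littermates is not known.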
